A study of Mus musculus with 12 samples.

Results

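The 9 genes described here encode enzymes and receptors of the prostaglandin pathway, and they were chosen by name for that role: Ptgs1, Ptgs2, Ptgis, Ptges and Ptgds for synthesis, and Ptgir, Ptger3, Ptger4 and Tbxa2r for reception. They are 9 of the 50600 genes in the count files, and all 9 passed the filter on low counts that left 24660 genes for testing. Expression was measured by RNA sequencing of the aorta of C57BL/6J mice, from the left subclavian artery down to the diaphragm. The mice were heterozygous for a loss of the elastin gene (Eln+/-), which makes the elastic protein of the wall. Off-drug mice drank minoxidil, an opener of ATP-sensitive potassium channels that dilates arteries, for 2 weeks from 2.5 months of age and then plain water for 1 week. On-drug mice drank minoxidil for the same 2 weeks, and control mice drank plain water throughout. Each group held 4 mice labelled 3 months old, although by the schedule the off-drug mice were 1 week older than the on-drug mice. Every mouse, control mice included, carried the Eln+/- genotype.

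Prostanoids are made from arachidonate, which phospholipases release from membranes. The cyclooxygenases, encoded by Ptgs1 and Ptgs2, turn it into prostaglandin H2, and terminal synthases convert that intermediate into prostacyclin, the prostaglandins E2, D2 and F2-alpha, or thromboxane. In arteries prostacyclin from endothelium and smooth muscle relaxes the muscle and inhibits platelets through its receptor, whereas thromboxane constricts the wall and activates platelets.

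The libraries were deep, with 41524501 counts in on-drug replicate 3 and 109423243 counts in on-drug replicate 1 as the extremes. Levels are given as CPM, the counts relative to a library size scaled by trimmed mean of M values (TMM). Smooth muscle markers were abundant, with Myh11, the smooth muscle myosin heavy chain, at 4964 ± 218 CPM in off-drug, 5108 ± 244 CPM in on-drug and 4083 ± 375 CPM in control aortas (mean ± SD, n = 4 each, as for all means that follow), and markers of endothelium (Pecam1) and fibroblasts (Pdgfra) were detected in every library. Eln itself was 235 ± 25.8 CPM in off-drug, 839 ± 227 CPM in on-drug and 480.5 ± 109 CPM in control aortas. By the test described below, Eln was lower in off-drug than in control and on-drug aortas (log2 fold changes -1.035 and -1.84). Its on-drug against control difference (0.80) did not pass, and those groups overlapped. These are whole-wall samples, so fewer cells of a type and less RNA per cell cannot be told apart. The labels present the 4 mice of a group as separate samples. The p-values set a difference between groups against the spread between those samples, estimated over all groups together and with information shared across genes.

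The promoters of the cyclooxygenase pair are shown because these genes encode the same enzymatic step and only one of them passed a test below. Of the 9 genes, 8 were found in the RefSeq promoter table (GRCm38.p6), with 250 bases before and 50 bases after each start, and Ptgis was not matched there. The first sequence is the 250 bases before the start of Ptgs2 at chr1:150099781-150100030 on the + strand, with capitals marking a GC box (GGGCGG) that begins 170 bases before the start. The second is a stretch of 24 bases just after the annotated start of Ptgs2, at chr1:150100035-150100058 on the + strand. Its place in the first exon rests on that annotated start. Capitals mark an E-box (CACGTG) and the core of a cAMP response element (TGACGT, here on the opposite strand), which overlap each other. The last is the 250 bases before the start of Ptgs1 at chr2:36230176-36230425 on the + strand.
Ptgs2 before the start: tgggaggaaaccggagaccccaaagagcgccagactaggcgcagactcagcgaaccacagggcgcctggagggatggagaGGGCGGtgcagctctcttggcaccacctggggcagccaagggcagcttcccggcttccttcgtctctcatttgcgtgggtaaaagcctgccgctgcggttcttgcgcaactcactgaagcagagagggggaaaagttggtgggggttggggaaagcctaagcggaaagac
Ptgs2 after the start: tcaccactACGTCACGTGgagtcc
Ptgs1 before the start: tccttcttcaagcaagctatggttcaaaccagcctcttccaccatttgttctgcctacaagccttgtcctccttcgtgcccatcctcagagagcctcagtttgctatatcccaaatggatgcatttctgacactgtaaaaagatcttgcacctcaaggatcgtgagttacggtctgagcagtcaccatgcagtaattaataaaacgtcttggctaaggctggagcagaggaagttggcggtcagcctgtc
Searched on both strands for 6 motifs, the Ptgs1 window held none, and the Ptgs2 window held 3. The other motifs searched were the AP-1 site (TGANTCA), the TATA box (TATAAA) and the CCAAT box (CCAAT). The E-box letters occur in 7.15% and the cAMP response element letters in 7.51% of 32851 mouse promoter windows of the same length, and among the 9 windows of these genes (Tbxa2r has a pair of starts) those of Ptgs2 were the only ones to hold either. GC boxes occur in 35.7% of all windows and in 6 of these 9. Such a match describes the letters and does not show that a factor binds there.

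Compared per length of exon, as reads scaled by exon length and library size (RPKM, over all 12 libraries), the 9 genes spread widely. Ptgis, the prostacyclin synthase, stood far above the rest at 236.3 RPKM and ranked 210 among the 24660 tested genes. Tbxa2r, the thromboxane receptor, followed at 9.41 RPKM, and then came Ptgs1 at 6.37 RPKM and Ptgs2 at 5.98 RPKM. Ptger4, Ptger3, Ptges and Ptgir lay between 1.60 and 1.13 RPKM in that order, and Ptgds was near the limit of detection at 0.127 RPKM. Over the 12 libraries the ranges of Ptger4, Ptger3, Ptges and Ptgir overlapped each neighbour in that order, as did those of Tbxa2r, Ptgs1 and Ptgs2, whereas Ptgis, this middle set, the 4 lower genes and Ptgds did not overlap with each other. The order of the cyclooxygenases depended on the group. Ptgs2 was 8.45 ± 1.83 RPKM in off-drug, 5.25 ± 1.46 RPKM in on-drug and 4.24 ± 0.402 RPKM in control aortas, and Ptgs1 was 6.02 ± 0.557 RPKM in off-drug, 7.01 ± 0.606 RPKM in on-drug and 6.07 ± 0.311 RPKM in control aortas. In control aortas every library had less Ptgs2 than the lowest Ptgs1 value, while in off-drug and on-drug aortas the ranges of both genes overlapped.

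**Figure D1:**
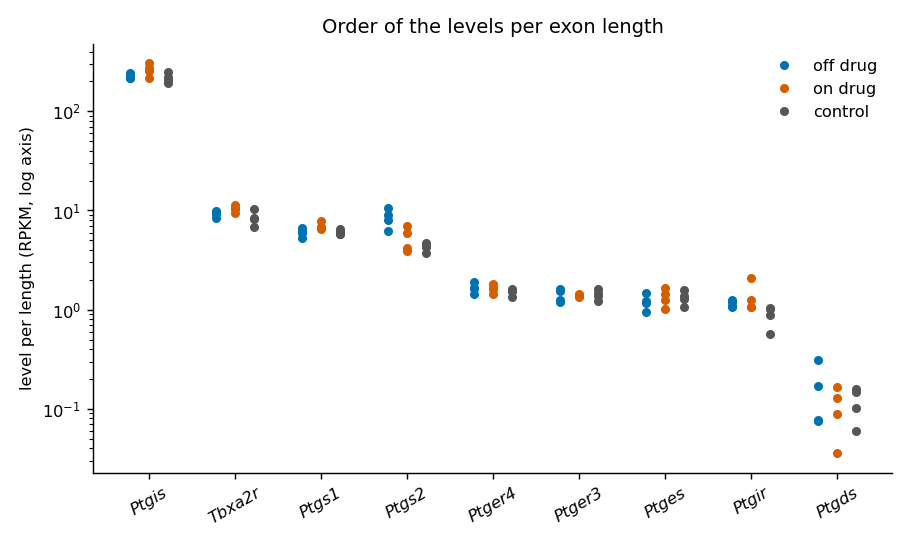
Level of the 9 genes per length of exon (RPKM, log10 axis) in each library of off-drug, on-drug and control aortas. Ptgis at 236.3 RPKM on average lies well above Tbxa2r at 9.41 RPKM, and Ptgds lies lowest at 0.127 RPKM.

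One of the 9 genes passed the test in 1 of the 3 comparisons. Ptgs2 was higher 1 week after withdrawal of minoxidil than in control aortas, while the other 8 genes did not pass in that comparison. None of the 9 passed in on-drug against control aortas or in off-drug against on-drug aortas. The call rule was an adjusted p below 0.05 by edgeR's quasi-likelihood test with Benjamini-Hochberg adjustment over all 24660 genes, which holds for every adjusted p below.

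In off-drug against control aortas 1 of 9 genes was called higher and 0 were called lower, beside 6.27% of all tested genes called higher, 5.77% called lower and 12% called in either direction. The log2 fold changes of the 9 genes had a median of 0.13, against -0.0077 over all tested genes. In on-drug against control aortas 0 of 9 genes were called, beside 7.07% of all genes (4.13% higher and 2.94% lower). Of the 9, 4 had an unadjusted p under 0.05, all of them higher. DESeq2 called 1 and limma-voom 0. The median log2 fold change of the 9 genes was 0.21, against 0.0049 over all genes. In off-drug against on-drug aortas 0 of 9 were called, beside 12.4% of all genes (5.44% higher and 6.92% lower). There 3 had an unadjusted p under 0.05 (1 higher, 2 lower), DESeq2 and limma-voom each called 1, and the median log2 fold change was -0.16, against -0.0011 over all genes. The share of all genes at an unadjusted p under 0.05 is not given. Counts at that level, here and for the lists below, therefore cannot be set beside the shares called. The split of calls over all genes depended on scaling. With library size without composition factors it was 1870 higher and 844 lower, against 1545 and 1422 in the fit reported, in off-drug against control aortas, and 1038 higher and 388 lower, against 1018 and 725, in on-drug against control aortas. The on-drug and off-drug comparisons against control share the same 4 control libraries.

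**Figure D2:**
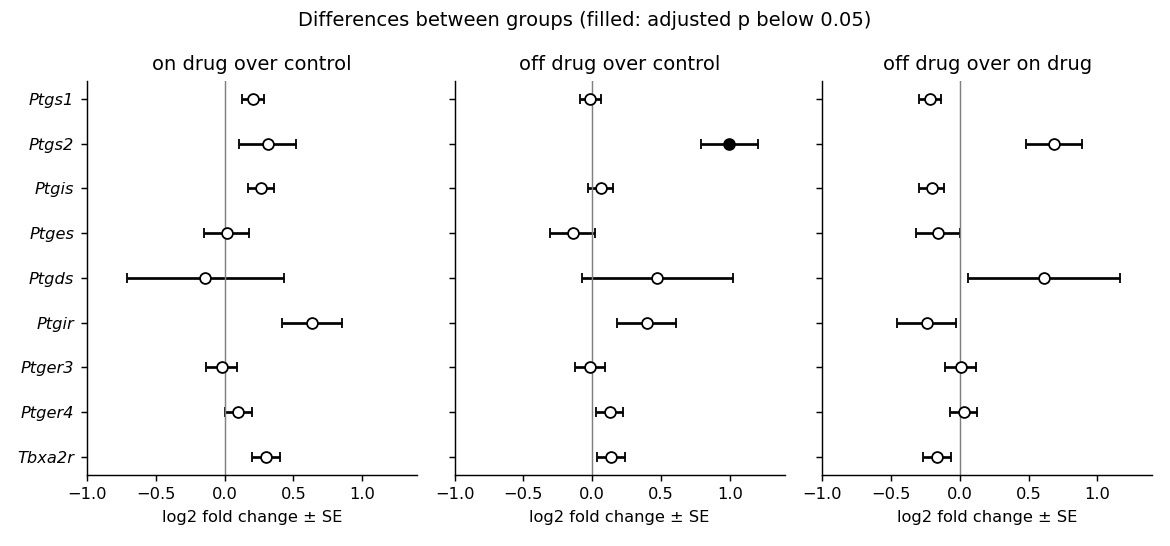
Log2 fold change of each of the 9 genes in the 3 comparisons, with bars of 1 standard error. Ptgs2 in off-drug against control aortas, at 1.00 ± 0.21, is the one value that passed the test.

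Ptgs2 (ENSMUSG00000032487.8, GRCm38 chr1:150100031-150108227, + strand) encodes cyclooxygenase-2, the inducible enzyme that is made in response to inflammatory, mechanical and mitogenic stimuli. It measured 28.6, 36.5, 40.9 and 48.7 CPM in the 4 off-drug aortas, 32.1, 18.02, 27.1 and 19.1 CPM in the 4 on-drug aortas and 21.3, 19.9, 19.5 and 16.9 CPM in the 4 control aortas. All 4 off-drug libraries lay above all 4 control libraries, while the on-drug libraries reached into both groups, with replicates 1 and 3 above every control and replicates 2 and 4 within the control range. Means were 38.7 ± 8.405 CPM in off-drug, 24.1 ± 6.70 CPM in on-drug and 19.4 ± 1.84 CPM in control aortas. Ptgs2 was 2.00-fold higher in off-drug than in control aortas (log2 fold change 1.00 ± 0.21, adjusted p = 0.0111). In the off-drug group Ptgs2 followed depth in all 4 libraries, from replicate 1 (54607008 counts) up to replicate 4 (101574049 counts). Among on-drug libraries the deepest, replicate 1 (109423243 counts), had the highest level, but the shallowest, replicate 3 (41524501 counts), had 27.1 CPM. Among controls the deepest had the lowest level (77423200 counts in replicate 4). The part of depth in the Ptgs2 difference was not tested. In off-drug against on-drug aortas the difference of 0.68 ± 0.21 (adjusted p = 0.0554) did not pass, and neither did on-drug against control at 0.31 ± 0.21 (adjusted p = 0.424), which was 0.13 without on-drug replicate 1. The off-drug against control call held in all 21 alternative settings, with adjusted p between 0.000117 and 0.0384. The off-drug against on-drug difference passed in 6 of the 21, with adjusted p between 0.00436 and 0.135, among them the fits without off-drug replicate 1 (0.0242) and without on-drug replicate 1 (0.0132).

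**Figure D3:**
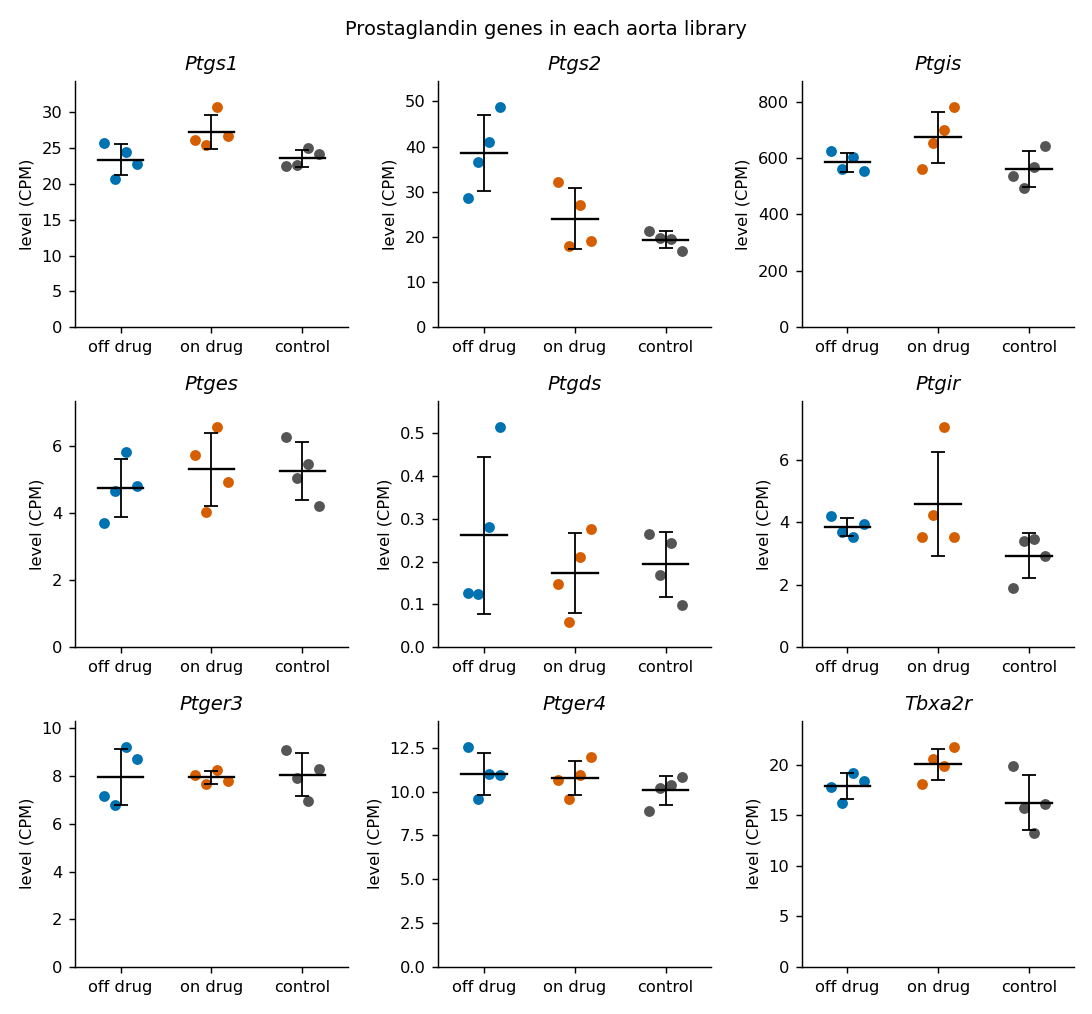
Level of each of the 9 genes (CPM, each panel with its own axis from 0) in the 4 off-drug, 4 on-drug and 4 control libraries, with the mean and SD as lines. The off-drug points of Ptgs2, 28.6 to 48.7 CPM, all lie above the control points, 16.9 to 21.3 CPM.

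Ptgs2 is classed among immediate-early genes, whose transcripts appear within minutes to hours of a stimulus, so 15 other such genes were set beside it. Of these, 0 were called higher and 8 lower in off-drug against control aortas, and 0 higher and 9 lower in off-drug against on-drug aortas, with median log2 fold changes of -1.09 and -0.81. In on-drug against control aortas 1 was called higher and 1 lower. Egr1, an immediate-early zinc-finger factor, measured 16.2, 16.2, 19.8 and 13.8 CPM in off-drug, 62.2, 75.5, 98.4 and 46.4 CPM in on-drug and 115, 114, 119 and 90.5 CPM in control aortas, so that the off-drug libraries lay below all others (log2 fold change -2.74 ± 0.22, adjusted p = 5.20e-05 against control). Egr2, a relative of Egr1, fell by 2.52 on the log2 scale in off-drug against control aortas, and Junb, a partner in the AP-1 factor, fell by 2.34. Zfp36, which encodes a protein that destabilises messenger RNAs, Ptgs2 messenger RNA among its known targets, was 25.6 ± 1.72 CPM in off-drug, 58.5 ± 14.5 CPM in on-drug and 54.6 ± 6.45 CPM in control aortas, and fell in off-drug against control aortas (log2 fold change -1.09 ± 0.15, adjusted p = 0.000584). Dusp1, a phosphatase of mitogen-activated kinases, also fell (log2 fold change -0.69 ± 0.11, adjusted p = 0.000846). Ptgs2 was higher in the same off-drug aortas in which 8 of these 15 genes were lower. At an unadjusted p under 0.05 against control, 10 of the 15 were lower and 2 were higher. Those higher were Jun (log2 fold change 0.58 ± 0.18, adjusted p = 0.0670) and Fosl1 (0.52 ± 0.25, adjusted p = 0.189). Against on-drug aortas 9 were lower and 1 was higher at that level, again Jun (0.615 ± 0.18, adjusted p = 0.0527). Markers of blood cells are given beside them. Of 6 erythroid markers 6 were called lower in off-drug against control aortas (median log2 fold change -1.89), with a summed level of 1112 to 2607 CPM in off-drug, 2127 to 3287 CPM in on-drug and 2676 to 11160 CPM in control aortas. Of 4 neutrophil markers tested 0 were called (4 at an unadjusted p under 0.05, all lower, 3 by DESeq2 and 2 by limma-voom, median -1.99), with a summed level of all 6 of 0.690 to 5.85 CPM in off-drug, 1.55 to 7.16 CPM in on-drug and 5.98 to 24.2 CPM in control aortas. The part of blood cells in these differences and in that of Ptgs2 was not tested. Nor was the part of Zfp36 in the Ptgs2 difference tested.

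In on-drug against control aortas the gene called higher was Ier3, a stress-induced survival gene (log2 fold change 0.69 ± 0.092, adjusted p = 0.000354), and the gene called lower was Egr2 (log2 fold change -1.20 ± 0.21, adjusted p = 0.00368). Against on-drug aortas, off-drug aortas had lower Ier3 (-0.81), Egr1 (-2.10), Zfp36 (-1.19), Junb (-2.18) and Egr2 (-1.31) on the log2 scale. A pair of circadian clock genes, chosen after their values were seen, is given beside Ptgs2. Arntl, an activator of the clock, was 1.09 ± 0.263 CPM in off-drug, 9.25 ± 3.22 CPM in on-drug and 17.2 ± 3.31 CPM in control aortas, and Per3, a clock repressor, was 93.4 ± 2.51 CPM in off-drug, 41.4 ± 9.48 CPM in on-drug and 22.1 ± 3.44 CPM in control aortas. Both were called in off-drug against control and against on-drug aortas, and in on-drug against control aortas Per3 was called and Arntl was not (adjusted p = 0.00379 for Per3 and 0.0577 for Arntl). The labels do not give the hour of collection. The part of the clock was not tested in the Ptgs2 difference or in any other difference between groups given here.

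**Figure D4:**
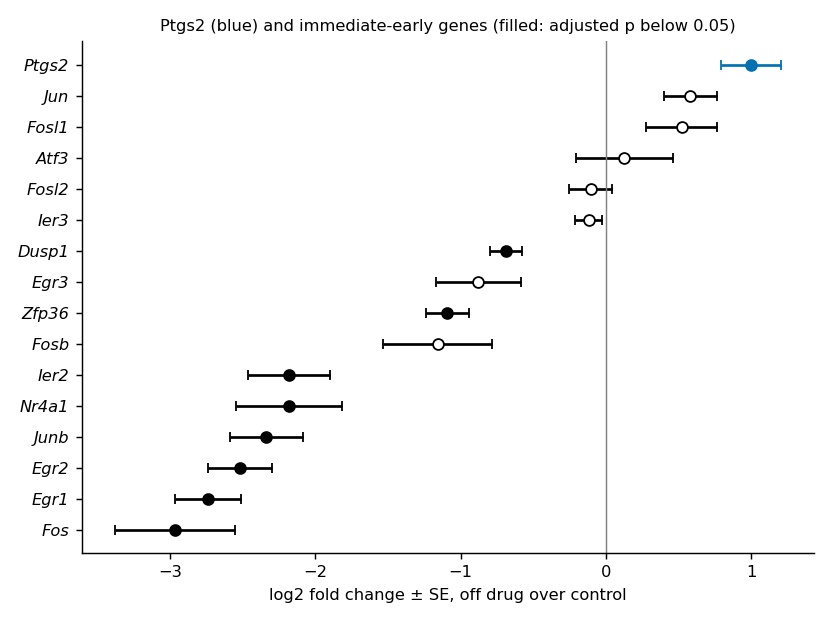
Log2 fold change of Ptgs2 (blue) and of 15 immediate-early genes in off-drug against control aortas, with bars of 1 standard error. Filled points passed the test. Ptgs2 lies at 1.00 ± 0.21, while Egr1 lies at -2.74 ± 0.22.

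Ptgs1 (ENSMUSG00000047250.13, GRCm38 chr2:36230426-36252272, + strand) encodes cyclooxygenase-1, the constitutive form. It measured 25.7, 20.7, 24.4 and 22.8 CPM in off-drug, 26.2, 25.4, 30.7 and 26.7 CPM in on-drug and 22.5, 22.7, 25.03 and 24.1 CPM in control aortas. All 4 on-drug libraries lay above all 4 controls by a narrow margin, and off-drug and control libraries overlapped. None of the differences passed, with 0.21 ± 0.079 (adjusted p = 0.123) in on-drug against control aortas, -0.012 ± 0.079 (adjusted p = 0.947) in off-drug against control aortas and -0.22 ± 0.079 (adjusted p = 0.0798) in off-drug against on-drug aortas. The ratio of Ptgs2 to Ptgs1 per length of exon was 1.42 ± 0.358 in off-drug, 0.749 ± 0.205 in on-drug and 0.701 ± 0.0921 in control aortas, given as a description. It exceeded 1 in some off-drug and on-drug libraries (highest 1.81 off-drug and 1.04 on-drug) and stayed at or under 0.805 in control libraries.

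Groups that do not overlap were found for 2 of 9 genes in on-drug against control aortas (Ptgs1 and Ptgir), beside 12.3% of all genes. In off-drug against control aortas they were found for 2 of 9 (Ptgs2 and Ptgir), beside 16.9% of all genes, and in off-drug against on-drug aortas for 0 of 9, beside 18.8%.

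Among the terminal synthases, Ptgis (ENSMUSG00000017969.13, GRCm38 chr2:167191805-167240604, - strand) makes prostacyclin. It measured 624, 562, 602 and 552 CPM in off-drug, 562, 654, 699.9 and 779 CPM in on-drug and 535, 494, 569 and 644 CPM in control aortas. The on-drug libraries reached highest, with 3 of the 4 above every control, but replicate 1 lay inside the control range. The differences were 0.26 ± 0.092 (adjusted p = 0.0911) in on-drug against control, 0.061 ± 0.092 (adjusted p = 0.738) in off-drug against control aortas and -0.20 ± 0.092 (adjusted p = 0.170) in off-drug against on-drug aortas, and none passed. The on-drug against control difference passed in 3 of 21 alternative settings, with adjusted p between 0.0225 and 0.278, of which 2 left out a library: on-drug replicate 1 (0.0225) and control replicate 4 (0.0414). The off-drug against on-drug difference passed without on-drug replicate 1 (0.0445) and in no other of the 21 settings, with adjusted p between 0.0445 and 0.446. Between 29941 and 61216 reads per library lay behind these values.

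Ptges (ENSMUSG00000050737.13, GRCm38 chr2:30889471-30929863, - strand) encodes the inducible microsomal prostaglandin E synthase that often works with cyclooxygenase-2. It measured 3.70, 4.64, 5.80 and 4.78 CPM in off-drug, 5.72, 4.02, 6.54 and 4.91 CPM in on-drug and 6.26, 5.02, 5.46 and 4.19 CPM in control aortas. The 3 groups overlapped throughout, and the differences were -0.14 in off-drug against control, 0.017 in on-drug against control aortas and -0.16 in off-drug against on-drug aortas on the log2 scale, each with a standard error of 0.16. Ptgds, the lipocalin-type prostaglandin D synthase (ENSMUSG00000015090.13, GRCm38 chr2:25466709-25470046, - strand), was barely detected, with 7 to 54 reads per library in off-drug, 3 to 21 in on-drug and 7 to 17 in control aortas. Off-drug replicate 4 held the 54 reads. The differences, 0.47 ± 0.55 (adjusted p = 0.646) in off-drug against control, -0.14 ± 0.57 (adjusted p = 0.924) in on-drug against control aortas and 0.61 ± 0.55 (adjusted p = 0.549) in off-drug against on-drug aortas, did not pass at these low read numbers. Without off-drug replicate 4 the first was -0.10.

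Of the receptors, Ptgir (ENSMUSG00000043017.9, GRCm38 chr7:16906490-16910905, + strand) binds prostacyclin, raises cAMP and relaxes smooth muscle. It measured 4.19, 3.67, 3.54 and 3.95 CPM in off-drug, 3.52, 4.21, 7.04 and 3.54 CPM in on-drug and 1.90, 3.39, 3.46 and 2.93 CPM in control aortas. Every off-drug and every on-drug library lay above every control library, with on-drug replicate 3 highest and control replicate 1 lowest. The margin was narrow, with 3.46 CPM as the highest control, 3.52 CPM as the lowest on-drug and 3.54 CPM as the lowest off-drug value. The difference was 0.64 ± 0.22 (adjusted p = 0.0894) in on-drug against control aortas and 0.40 ± 0.22 (adjusted p = 0.271) in off-drug against control aortas, and neither passed. Without on-drug replicate 3 the on-drug difference was 0.35 (adjusted p = 0.314), and without control replicate 1 the off-drug difference was 0.23. The on-drug difference passed without a filter on low counts (0.0407) and with DESeq2 (0.0338), out of 21 settings with adjusted p between 0.0338 and 0.314. Off-drug and on-drug aortas differed by -0.24 ± 0.21 (adjusted p = 0.547), and the sign of that difference rested on on-drug replicate 3, without which it was 0.038.

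Tbxa2r, the thromboxane receptor (ENSMUSG00000034881.8, GRCm38 chr10:81328731-81335172, + strand), signals through Gq and G12/13 proteins to contract smooth muscle. It measured 17.8, 16.2, 19.2 and 18.4 CPM in off-drug, 18.04, 20.5, 19.9 and 21.7 CPM in on-drug and 19.9, 15.7, 13.2 and 16.1 CPM in control aortas. The groups overlapped, with control replicate 1 above the other 3 controls, and the differences were 0.30 ± 0.10 (adjusted p = 0.0804) in on-drug against control, 0.14 ± 0.10 (adjusted p = 0.426) in off-drug against control aortas and -0.16 ± 0.10 (adjusted p = 0.343) in off-drug against on-drug aortas. The on-drug against control difference passed in 3 of 21 settings, with adjusted p between 0.0107 and 0.259: without control replicate 1 (0.0107), without on-drug replicate 1 (0.0481) and without a filter on low counts (0.0281). The ratio of Ptgir to Tbxa2r per length of exon was 0.124 ± 0.0130 in off-drug, 0.132 ± 0.0490 in on-drug and 0.109 ± 0.0404 in control aortas, with overlapping ranges.

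Ptger4, the EP4 receptor for prostaglandin E2 (ENSMUSG00000039942.15, GRCm38 chr15:5206661-5244187, - strand), raises cAMP, whereas Ptger3, the EP3 receptor (ENSMUSG00000040016.16, GRCm38 chr3:157566892-157645888, + strand), mainly lowers it. Ptger4 was 11.01 ± 1.20 CPM in off-drug, 10.8 ± 0.977 CPM in on-drug and 10.1 ± 0.835 CPM in control aortas. Its differences were 0.13 in off-drug against control, 0.10 in on-drug against control aortas and 0.027 in off-drug against on-drug aortas on the log2 scale, with overlapping ranges. The exons of Ptger4 overlap those of a pseudogene, Gm15937, by 1015 bases on the opposite strand and Ttc33 by 82 bases, and the counts set no strand, so these genes share reads. Overlaps on the opposite strand also touch Ptgs1 (148 bases, Gm43621) and Ptgis (156 bases, 1110018N20Rik).

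Ptger3 measured 7.15, 6.80, 9.22 and 8.72 CPM in off-drug, 8.05, 7.68, 8.28 and 7.81 CPM in on-drug and 9.11, 7.90, 6.95 and 8.30 CPM in control aortas. Group means lay close together and the on-drug libraries were tight, while off-drug replicates 1 and 2 and control replicate 3 were the 3 lowest of the 12. Summed over the 8 adipocyte markers, those same 3 libraries were also lowest, at 87.3 and 74.4 CPM in off-drug replicates 1 and 2 and 136.2 CPM in control replicate 3, with the others between 224.5 and 591.5 CPM. The part of adipose tissue in the spread of Ptger3 was not tested. Its differences between groups were -0.015, -0.021 and 0.0057 for off-drug against control, for on-drug against control and for off-drug against on-drug aortas, each with a standard error of 0.11.

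For 8 of the 9 genes the named genes with the most similar pattern over the 12 libraries were listed, among 12194 candidates, by Pearson's r of log2 CPM, as a description in which all genes share the libraries, their depth and the group differences. For Ptgs2 these were Trmt6 (0.954), Fam78b (0.943) and Tceanc (0.929). Ptgs1 had Enpp6 (0.941), Rapgef3 (0.936) and Nos3 (0.916), the last being the endothelial nitric oxide synthase. Ptger3 had Agpat2 (0.963), Eno1b (0.955) and Thrsp (0.953), Tbxa2r had Igsf9 (0.948), Mast2 (0.944) and Iqsec1 (0.940), and Ptgis had Plekha7 (0.935), Ppp1r12c (0.926) and Abtb1 (0.907). The best values were lower for Ptges (Hmgb3, 0.876), Ptger4 (Tars2, 0.797) and Ptgds (Egln3, 0.780). Among pairs of the 9 genes the highest r was 0.686, between Ptgs1 and Ptgis, and Ptgs2 reached at most 0.476, with the barely detected Ptgds.

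The other prostanoid synthases were measured to set the 9 genes in their pathway. Of 7 tested, 1 was called higher and 2 lower in off-drug against control aortas, 1 higher and 1 lower in off-drug against on-drug aortas, and 0 in on-drug against control aortas (3 at an unadjusted p under 0.05, and 0 by DESeq2 or limma-voom), with medians of 0.19, 0.14 and -0.0006. Tbxas1, the thromboxane synthase, measured 3.30, 4.94, 4.24 and 3.42 CPM in off-drug, 7.70, 7.46, 7.04 and 5.04 CPM in on-drug and 5.83, 6.22, 6.09 and 5.27 CPM in control aortas. Every off-drug library lay below every on-drug and control library, and Tbxas1 fell in off-drug against on-drug aortas (log2 fold change -0.77 ± 0.15, adjusted p = 0.00151) and against control (log2 fold change -0.56 ± 0.15, adjusted p = 0.0184). Over the 21 settings the adjusted p against control ran between 0.00158 and 0.0666, and the call was lost without off-drug replicate 1 (0.0666) or 4 (0.0621). Tbxas1 is also expressed by macrophages, and the summed level of 8 macrophage markers was 649 to 753 CPM in off-drug, 801 to 982 CPM in on-drug and 774 to 975 CPM in control aortas, all 8 of them detected. Lyz2 was the largest part of that sum (399 CPM on average in control aortas). In off-drug against control aortas 6 of the 8 had a negative and 2 a positive log2 fold change, with 4 called lower and 0 higher. Against on-drug aortas all 8 were negative, with 5 called lower. The part of macrophages in the Tbxas1 difference was not tested. The ratio of Ptgis to Tbxas1 per length of exon, given as a description, was 536.8 ± 112.1 in off-drug, 367.4 ± 126.2 in on-drug and 342.6 ± 64.0 in control aortas.

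Akr1b3, an aldose reductase that can also make prostaglandin F2-alpha, rose in off-drug against control aortas (log2 fold change 0.27 ± 0.061, adjusted p = 0.00602). Ptges3, a co-chaperone with cytosolic prostaglandin E synthase activity, fell by 0.30 on the log2 scale (adjusted p = 0.0468, between 0.0100 and 0.139 over the settings). That call was lost in 11 of 21 settings: with library size without composition factors, limma-voom, the non-robust fit and the replicate block, and without control replicates 2 or 3, off-drug replicates 1, 2 or 3 or on-drug replicates 1 or 3, each left out alone. Cbr1, a carbonyl reductase that acts on prostaglandins, rose in off-drug against on-drug aortas (log2 fold change 0.44 ± 0.097, adjusted p = 0.00497). Of the other prostanoid receptors 4 of 5 were tested and 0 were called in any comparison, with 1, Ptger1, at an unadjusted p under 0.05, lower in off-drug than in on-drug aortas (log2 fold change -0.25 ± 0.085, adjusted p = 0.0594), where DESeq2 and limma-voom each called 1. No receptor of this list had an unadjusted p under 0.05 against control, and neither DESeq2 nor limma-voom called one there. Ptgdr, a prostaglandin D2 receptor, was too low to test.

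Of 6 genes for transport and breakdown, 1 was called higher and 1 lower in on-drug against control aortas, 1 higher and 2 lower in off-drug against on-drug aortas, and 0 in off-drug against control aortas (0 also at an unadjusted p under 0.05 and by DESeq2 and limma-voom). Medians were 0.021, -0.010 and 0.077 in that order of comparisons. Slco2a1, the transporter that takes prostaglandins into cells, measured 10.3, 9.46, 10.3 and 10.1 CPM in off-drug, 13.2, 10.6, 14.4 and 15.6 CPM in on-drug and 8.86, 9.03, 8.80 and 8.41 CPM in control aortas. Each on-drug library was higher than every off-drug and control library. Slco2a1 rose in on-drug against control aortas (log2 fold change 0.62 ± 0.10, adjusted p = 0.00144) and was lower in off-drug than in on-drug aortas (log2 fold change -0.42 ± 0.10, adjusted p = 0.00781). Slco2a1 is expressed in endothelium, and the summed level of 8 endothelial markers was 618 to 803 CPM in off-drug, 832 to 972 CPM in on-drug and 659 to 756 CPM in control aortas. The summed level of 5 lymphatic endothelial markers was 50.1 to 64.6 CPM in off-drug, 108 to 128 CPM in on-drug and 65.5 to 87.1 CPM in control aortas, with every marker of both lists detected. Their part in the Slco2a1 difference, and in the on-drug values of Ptgs1 and Ptgir, was not tested.

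Hpgd, the dehydrogenase that inactivates prostaglandins after uptake, measured 7.22, 9.57, 8.31 and 7.55 CPM in off-drug, 6.38, 6.62, 3.86 and 5.33 CPM in on-drug and 6.84, 8.44, 8.54 and 7.92 CPM in control aortas. The on-drug libraries all lay below the other groups, by a narrow margin for replicates 1 and 2. Hpgd fell in on-drug against control aortas (log2 fold change -0.51 ± 0.14, adjusted p = 0.0374) and was higher in off-drug than in on-drug aortas (log2 fold change 0.55 ± 0.14, adjusted p = 0.0149). That first call had adjusted p between 0.00339 and 0.107 over the settings and was lost in 8 of 21: with library size without composition factors, only the 2 compared groups and the non-robust fit, and without control replicate 2, 3 or 4 or on-drug replicate 3 or 4, each alone. The off-drug against on-drug call, between 0.000620 and 0.0583, was lost without off-drug replicate 2 (0.0583). Abcc4, which exports prostaglandins, was lower in off-drug than in on-drug aortas (log2 fold change -0.44 ± 0.13, adjusted p = 0.0280), and leaving out any 1 of replicates 2, 3 and 4 of either group lost that call (between 0.0516 and 0.0940, over all settings between 0.00884 and 0.0940).

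**Figure D5:**
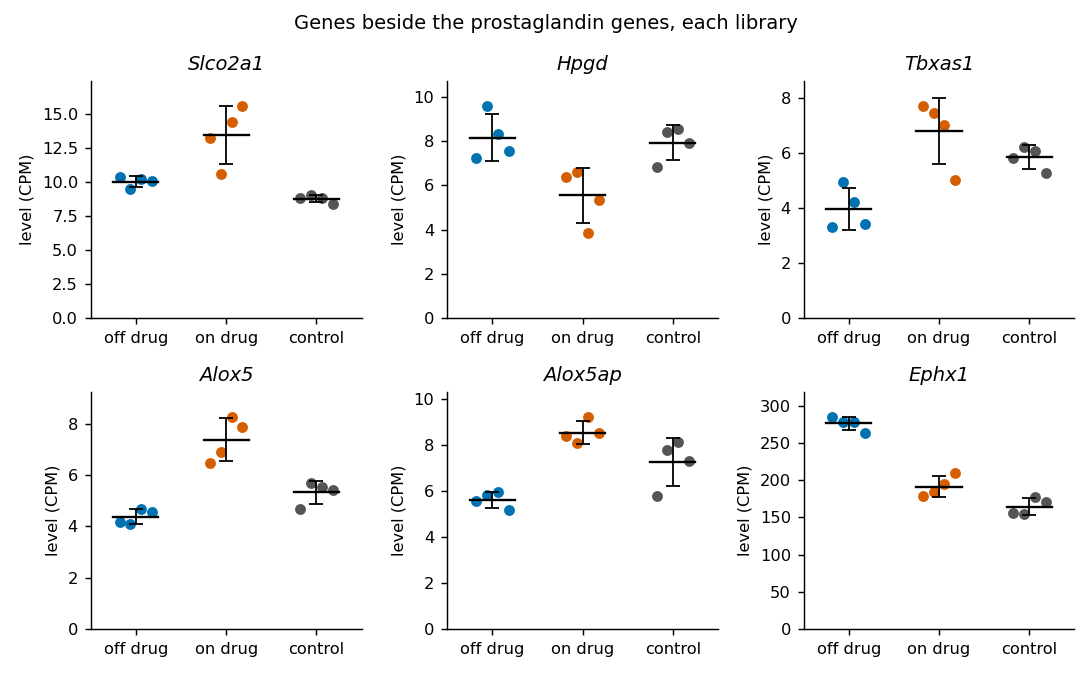
Levels (CPM) of Slco2a1, Hpgd, Tbxas1, Alox5, Alox5ap and Ephx1 in each off-drug, on-drug and control library, with the mean and SD as lines. On-drug points are highest for Slco2a1 (10.6 to 15.6 CPM) and lowest for Hpgd (3.86 to 6.62 CPM), and off-drug points are lowest for Tbxas1 (3.30 to 4.94 CPM).

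Upstream, genes for release and return of arachidonate showed 4 higher and 2 lower of 21 tested in off-drug against control aortas, 4 higher and 1 lower in off-drug against on-drug aortas, and 0 in on-drug against control aortas (5 at an unadjusted p under 0.05, 1 by DESeq2 and 0 by limma-voom). The medians were 0.15, 0.033 and 0.082. Pla2g4a, the cytosolic phospholipase A2 that feeds the cyclooxygenases, did not pass in any comparison (0.15 in off-drug against control, 0.083 in on-drug against control aortas and 0.065 in off-drug against on-drug aortas on the log2 scale). It falls outside the rule for named genes and was chosen after its values were seen. Abhd6, a monoacylglycerol lipase, averaged 4.94 ± 0.284 CPM in off-drug, 3.12 ± 0.432 CPM in on-drug and 3.65 ± 0.0841 CPM in control aortas, and rose in off-drug against both (log2 fold change 0.67 ± 0.12, adjusted p = 0.00112 against on-drug and 0.43 ± 0.12, adjusted p = 0.0248, against control). Lpcat3, which returns arachidonate to phospholipids, fell in off-drug against both (log2 fold change -0.49 ± 0.093, adjusted p = 0.00161 against on-drug and -0.38 ± 0.093, adjusted p = 0.0116, against control). Mgll, the main monoacylglycerol lipase, rose against control (log2 fold change 0.33 ± 0.077, adjusted p = 0.00941).

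Of the phospholipases A2, 4 are named by the rule. Pla2g2d, a secreted form, averaged 2.09 ± 1.297 CPM in off-drug, 0.798 ± 0.178 CPM in on-drug and 0.984 ± 0.190 CPM in control aortas and was higher in off-drug aortas (log2 fold change 1.42 ± 0.33, adjusted p = 0.00901 against on-drug and 1.10 ± 0.33, adjusted p = 0.0369, against control), although all its levels were low. Pla2g5, another secreted form, was lower in off-drug than in control aortas (log2 fold change -0.64 ± 0.18, adjusted p = 0.0269), and Pla2g4e and the lysosomal Pla2g15 were higher in off-drug than in on-drug aortas (1.06 and 0.21 on the log2 scale). Several of these calls depended on the setting. The call of Pla2g2d against control was lost in 9 of 21 settings (adjusted p between 0.00808 and 0.182 over all of them): with limma-voom, with only the 2 compared groups, with the replicate block, without any 1 control and without off-drug replicate 3 or 4. Without off-drug replicate 4 the log2 fold change of Pla2g2d was 0.56 against control and 0.89 against on-drug aortas. Against control, Pla2g5 lost its call with only the 2 compared groups and without control replicate 3 or 4 or off-drug replicate 3 (between 0.00403 and 0.0849), and Abhd6 without a filter on low counts and without control replicate 2 or 3 or off-drug replicate 3 or 4 (between 0.00589 and 0.0792). Against on-drug aortas, Pla2g15 lost its call without a filter on low counts and without off-drug replicate 1, 2 or 3 or on-drug replicate 1, 2 or 4 (between 0.0224 and 0.114).

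Other branches of arachidonate metabolism, the lipoxygenase, leukotriene and epoxide genes, showed 2 higher and 1 lower of 15 tested in off-drug against control, 2 higher and 0 lower in on-drug against control and 2 higher and 3 lower in off-drug against on-drug aortas, with medians of -0.024, 0.24 and -0.26. Ephx1, the microsomal epoxide hydrolase, was 276 ± 8.88 CPM in off-drug, 192 ± 13.6 CPM in on-drug and 164 ± 11.5 CPM in control aortas. All off-drug libraries lay above all others, and Ephx1 rose against control (log2 fold change 0.75 ± 0.064, adjusted p = 5.81e-07) and against on-drug aortas (log2 fold change 0.53 ± 0.064, adjusted p = 1.94e-05). On-drug against control it was higher by 0.22 ± 0.064 (adjusted p = 0.0437), a call lost in 14 of 21 settings (adjusted p between 0.0249 and 0.158 over all of them). These were DESeq2 size factors, only the 2 compared groups, the non-robust fit, the replicate block, and leaving out any 1 library other than control replicate 3 or on-drug replicate 1.

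Alox5, the lipoxygenase that starts leukotriene synthesis, was 4.37 ± 0.301 CPM in off-drug, 7.37 ± 0.8286 CPM in on-drug and 5.32 ± 0.445 CPM in control aortas, and rose in on-drug against control aortas (log2 fold change 0.47 ± 0.11, adjusted p = 0.0160). That call was lost without on-drug replicate 3 (0.0699) or 4 (0.0578), with adjusted p between 0.00212 and 0.0699 over the settings. Alox5ap, the protein that presents arachidonate to it, was 5.62 ± 0.346 CPM in off-drug, 8.54 ± 0.482 CPM in on-drug and 7.25 ± 1.04 CPM in control aortas. In off-drug against on-drug aortas both fell, with a log2 fold change of -0.75 ± 0.11 (adjusted p = 0.000160) for Alox5 and of -0.60 ± 0.11 (adjusted p = 0.000923) for Alox5ap. Alox5 and Alox5ap are expressed by myeloid cells, and the macrophage marker sums given beside Tbxas1 apply here too. The summed level of 7 mast cell markers was 7.71 to 20.3 CPM in off-drug, 18.1 to 29.3 CPM in on-drug and 9.72 to 15.3 CPM in control aortas. Of these 7, 3 were called higher and 0 lower in on-drug against control aortas. The part of macrophages and mast cells in the Alox5 and Alox5ap differences was not tested. Against control Alox5ap fell in off-drug aortas (log2 fold change -0.37 ± 0.11, adjusted p = 0.0328) and Alox12, the platelet-type lipoxygenase, rose (log2 fold change 0.52 ± 0.16, adjusted p = 0.0441), as it did against on-drug aortas (log2 fold change 0.68 ± 0.16, adjusted p = 0.00871). Each of these calls against control was lost in 9 of 21 settings. Alox5ap lost it with library size without composition factors, with only the 2 compared groups and without any 1 off-drug replicate or control replicate 2, 3 or 4 (adjusted p over the settings between 0.00410 and 0.112), and Alox12 with the replicate block and without any 1 of these libraries or on-drug replicate 3 (between 0.0197 and 0.142). The summed level of 8 platelet markers was 39.2 to 52.5 CPM in off-drug, 43.0 to 46.2 CPM in on-drug and 38.6 to 55.2 CPM in control aortas. Dpep1, a dipeptidase of leukotriene breakdown, was lower in off-drug than in on-drug aortas (log2 fold change -0.26 ± 0.076, adjusted p = 0.0326), a call lost with library size without composition factors and without off-drug replicate 3 or 4 or on-drug replicate 2 or 4 (between 0.00342 and 0.128).

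Downstream of the receptors, 29 genes for G proteins, cAMP and desensitisation were tested. In off-drug against control aortas 5 were called higher and 5 lower, in on-drug against control aortas 3 higher and 1 lower, and in off-drug against on-drug aortas 3 higher and 6 lower, with medians of 0.078, 0.038 and 0.0078. Grk5, a kinase that desensitises G-protein-coupled receptors, measured 13.6, 14.3, 13.3 and 14.1 CPM in off-drug, 35.7, 39.1, 32.4 and 37.3 CPM in on-drug and 27.8, 31.0, 31.2 and 38.4 CPM in control aortas. Off-drug levels lay far below both other groups without overlap (log2 fold change -1.21 ± 0.088, adjusted p = 8.32e-08 against control, and -1.38 ± 0.088, adjusted p = 3.02e-08, against on-drug aortas). Pde4b, a phosphodiesterase that degrades cAMP, also fell in off-drug aortas, with a log2 fold change of -0.77 ± 0.098 (adjusted p = 9.49e-05) against control and of -0.62 ± 0.098 (adjusted p = 0.000457) against on-drug aortas.

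Adcy5 and Adcy7 encode adenylyl cyclases, which make cAMP. Adcy5 was 631 ± 18.7 CPM in off-drug, 605 ± 70.6 CPM in on-drug and 478 ± 24.3 CPM in control aortas and rose in off-drug against control (log2 fold change 0.40 ± 0.073, adjusted p = 0.00140) and in on-drug against control aortas (log2 fold change 0.34 ± 0.073, adjusted p = 0.00920), comparisons that share the controls. Adcy7 was 278 ± 8.27 CPM in off-drug, 211 ± 8.06 CPM in on-drug and 223 ± 6.46 CPM in control aortas and rose in off-drug against control (log2 fold change 0.32 ± 0.053, adjusted p = 0.000584) and on-drug aortas (log2 fold change 0.40 ± 0.053, adjusted p = 5.46e-05). Arrb1, an arrestin, rose in on-drug against control aortas (log2 fold change 0.42 ± 0.064, adjusted p = 0.000871) and was lower in off-drug than in on-drug aortas (log2 fold change -0.36 ± 0.064, adjusted p = 0.000795). Pde4a, another phosphodiesterase, was higher (log2 fold change 0.47 ± 0.13, adjusted p = 0.0369) and Gnai3, an inhibitory G-protein subunit, lower (log2 fold change -0.30 ± 0.076, adjusted p = 0.0225) in on-drug than in control aortas. Pde4a lost its call with limma-voom, with only the 2 compared groups and without any 1 library other than off-drug replicate 2, control replicate 4 or on-drug replicate 1 (over the settings between 0.00400 and 0.130), and Gnai3 with library size without composition factors, with only the 2 compared groups and without control replicate 3 or on-drug replicate 3 or 4 (between 0.00123 and 0.0894). Gna11, a Gq-family subunit, rose in off-drug against control (log2 fold change 0.34 ± 0.071, adjusted p = 0.00373), and Gna12 rose in off-drug against on-drug aortas (log2 fold change 0.27 ± 0.069, adjusted p = 0.0137). Of the 3 PPAR genes, nuclear receptors that bind some prostanoids, 0 were called in any comparison. Ppard had an unadjusted p under 0.05 against control, higher both in off-drug (log2 fold change 0.26 ± 0.12, adjusted p = 0.181) and in on-drug aortas (log2 fold change 0.27 ± 0.12, adjusted p = 0.179), and DESeq2 and limma-voom called 0 of the 3.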

How the data were processed

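RNA of 12 Eln+/- aortas, 4 per group, was extracted as one group, per the labels' protocols. Reads were counted per gene by the authors, per the file headers, using featureCounts (1.4.6-p3), GENCODE M13 genes and a STAR 2.5.3a index, and the deposited count is a whole number. The submitters' processing notes name GRCm38. Counting set no strand and assigned reads that map to several places or genes to each of them, so overlapping genes share reads. The deposited series tables hold log2 values that equal log2(count / DESeq2 size factor + 1) within 5e-09, and they served for symbols and coordinates. Sex, cage and hour of collection are not given in the sources used here.

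The counts were then fitted in R 4.3.3 with edgeR 4.0.16 (filterByExpr with a minimum count of 10 and a minimum total of 15, TMM, robust glmQLFit over 3 groups, glmQLFTest, two-sided), which tested 24660 of 50600 genes. Calls were made at an adjusted p below 0.05, with the Benjamini-Hochberg method applied over all 24660. The standard error is the log2 fold change divided by the square root of F. RPKM was computed here from the exon lengths in the count files. Promoter sequences are from RefSeq. There were 21 alternatives. They were no filter, a filter of CPM 1 in 4 libraries, edgeR with the DESeq2 size factors, plain library size, DESeq2 1.42.0, limma-voom 3.58.1 with quality weights, only the 2 compared groups, a fit that was not robust, a block for the replicate number, and each of the 12 libraries left out in turn. The 9 genes, the other lists and the tests were chosen with earlier results of these data known. All 9 genes were named, and of each other list up to 5 called genes per comparison, by smallest adjusted p. Likeness of pattern was measured on log2 CPM (prior count 2) among genes whose mean was 1 or more, with 3 genes per member, and the result for Ptgir is not reported here.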

Additional observations from a re-analysis of the deposited data

Results flagged for a closer look

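Among 129 groups of 4 libraries (43 genes in 3 groups), 6 held a library whose gap to its nearest neighbour was too large a share of the range by Dixon's test at the 95% level, a number near the 1 in 20 that chance gives. None concerned the 9 prostaglandin genes. Lpcat3 was 9.15 CPM in off-drug replicate 3, above the other off-drug libraries, and Gnai3 was 109.3 CPM in off-drug replicate 2, also above the rest of its group. Pla2g15 was 42.2 CPM in on-drug replicate 3, above the other on-drug libraries, and Gna11 was 56.2 CPM in on-drug replicate 1, below them. In the controls, replicate 4 was high for Abcc4 at 6.00 CPM and low for Pla2g2d at 0.701 CPM.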

How the results depend on the processing

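The off-drug against control call of Ptgs2 held in all 21 alternatives (log2 fold change 0.87 to 1.11), and 1 of the 9 genes was called in that comparison under each. In on-drug against control aortas the count of the 9 called was 2 without a filter on low counts (Ptgir and Tbxa2r), 1 with library size without composition factors (Ptgis), 1 with DESeq2 (Ptgir) and 0 to 2 when 1 library was left out. In off-drug against on-drug aortas it was 1 with the stricter filter, 1 with DESeq2, 1 with limma-voom, 1 with the non-robust fit, Ptgs2 each time, and 0 to 2 when 1 library was left out (Ptgs2 and Ptgis without on-drug replicate 1). Over all genes 1743 were called in on-drug against control aortas, 2740 with DESeq2, 1147 with only the 2 compared groups and 803 (without on-drug replicate 3) to 2290 (without on-drug replicate 1) with 1 library left out. The other 2 comparisons stayed within 1.5 times of 2967 and 3047 calls. With the replicate block the counts were 1558 in on-drug against control, 2791 in off-drug against control and 3047 in off-drug against on-drug aortas. Libraries with the same number correlated between -0.0797 and 0.0672 in their deviations from the group means. Libraries with different numbers correlated between -0.106 and 0.113. These ranges showed no pairing by number, although weak correlation cannot exclude that the mice were matched.

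Several differences, none of them a call, changed sign in some settings. In on-drug against control aortas Ptges was -0.0036 with limma-voom and -0.10 to 0.12 with 1 library left out, Ptgds was -0.48 to 0.12 with 1 left out, and Ptger3 was 0.015 with library size without composition factors and -0.091 to 0.035 with 1 left out. In off-drug against control aortas Ptgs1 was 0.046 and Ptger3 0.042 with library size without composition factors, and with 1 library left out Ptgs1 was -0.063 to 0.044, Ptger3 -0.095 to 0.056, Ptgis -0.0027 to 0.13 and Ptgds -0.10 to 0.71. In off-drug against on-drug aortas with 1 left out, Ptgir was -0.35 to 0.038, Ptger3 -0.067 to 0.076 and Ptger4 -0.037 to 0.088. The cause was not tested. The largest shift of the median of all genes under any setting was 0.065. Of 56 other named gene and comparison pairs 40 kept their call in every setting, 16 lost it in at least 1 and 0 changed sign. The values of Ptgds rest on few reads, 3 to 54 per library.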
